A study of Bos taurus with 14 samples.

Results

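Lines A and B of bovine embryonic stem cells, both derived from blastocysts, were compared over their later passages. The comparison used 8 of the 14 samples of the series: line A at passages 13, 23, 35 and 45 (P13 to P45) and line B at passages 12, 24, 35 and 46 (P12 to P46), with 1 RNA-seq library at each passage. All 8 cultures were grown on mouse embryonic fibroblast feeders in CTFR medium, a base without FGF2 and TGFb to which 20 ng/mL FGF2 and 2.5 µM IWR1 had been added. IWR1 blocks canonical WNT signalling. The other 6 samples were 1 library of each line at P10, 2 pools of blastocysts and 2 lines of skin fibroblasts. Only the P10 libraries among them were used here, and only side by side with the later passages, because they belong to another set of files. The labels do not say that libraries of 1 line came from separate cultures, so the 4 libraries of a line are repeated looks at 1 line, and p-values measure the spread between passages. A single line stands for each side of the comparison, so a difference between the lines cannot be told apart from a difference between the embryos or cultures they came from.

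Embryonic stem cells grown with FGF2 while WNT signalling is blocked are held in a primed state, which resembles the epiblast shortly before gastrulation. Such cells depend on FGF and ERK signalling and carry a network of transcription factors in which SOX2 is central. Lines derived from different embryos share this network but differ in genotype, among others at the major histocompatibility complex (MHC), and in culture they can also diverge in imprinted genes, in metabolism and in the share of cells that begin to differentiate.

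The 8 libraries held 24616 features each, as RPKM, reads scaled to feature length and library size, with summed values between 475822 and 501373 RPKM and 12152 to 12563 features at 1 RPKM or more. Depth relative to line A at P13 was estimated as the inverse of the commonest ratio of values among features of very low RPKM in both libraries. It was lowest in line A at P35 (0.71) and lay between 0.902 and 1.03 in the other libraries. Total read counts are unknown. The libraries carried the markers of the labelled cell type. SOX2 lay between 154 and 205 RPKM and OTX2, a primed epiblast factor, between 86.3 and 115 RPKM in all 8. Several defining markers of other lineages were at or near 0: CDX2 of trophectoderm was listed at 0 in all 8, and GATA4 and SOX17 of hypoblast, T of the primitive streak, PTPRC of blood cells and KRT5 and TP63 of keratinocytes did not exceed 0.21 RPKM. Other genes on those lists, which are less restricted to 1 cell type, were well above 0: KRT8 at 154 to 514 RPKM and KRT18 at 80.9 to 274 RPKM for trophectoderm, APOE at 119 to 179 and APOA1 at 44.3 to 80.8 RPKM for hypoblast, and LYZ at 1.46 to 34.6 RPKM for blood cells. BMP4 on the primitive streak and mesoderm list was at 3.27 to 6.17 RPKM, and LAMB3 on the keratinocyte list at 0.937 to 2.04 RPKM. POU5F1 and NANOG were not analysed here. Every library lists GAPDH at 0, so an exact 0 in these files does not show that a gene is silent. In bulk RNA, fewer cells of a type and less RNA per cell cannot be told apart.

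Some libraries stood apart within their own line. The mean log2(RPKM + 1) of 24 hypoxia-induced genes was 3.63 in line A at P13 and 4.05 at P35, against 4.94 at P23 and 5.02 at P45. In line B it was 4.88 at P12, 4.59 at P24, 4.32 at P35 and 4.95 at P46. Line A at P13 and P35 were thus the lowest of the 8, and line B at P35 the next. Neural ectoderm genes ran the other way, with means of 4.37 and 3.96 in those line A libraries and 4.23 in line B at P35, against 3.27 to 3.62 in the other 5. Counts that led a comparison were therefore repeated without line A at P13 and P35, and without these and line B at P35.

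Few differences between the lines were larger than the spread between passages. Of 12785 features that reached 1 RPKM in 2 or more libraries, 1 passed the test between the lines. The test was limma on log2(RPKM + 1), called at a Benjamini-Hochberg adjusted p under 0.05. No feature was higher in line A (0.0%) and 1 was higher in line B (0.00782%): ULBP3, a ligand of the NKG2D receptor of natural killer cells. Before adjustment limma gave a p under 0.05 for 462 features higher in line A (3.61%) and 378 higher in line B (2.96%), together 6.57%. The 4 values of line A lay above all 4 of line B for 335 features (2.62%), and the reverse held for 225 (1.76%), together 4.38%. Without line A at P13 and P35, no feature was called in either direction, and 276 (2.2%) and 361 (2.87%) had an unadjusted p under 0.05 in favour of line A and line B. Without line B at P35 as well, the counts were again 0 called and 341 (2.74%) and 477 (3.84%).

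Most differences were also bounded to a limited size. The median absolute difference was 0.10 on the log2 scale and the median half-width of the 95% interval 0.27. For 12332 of the 12785 features (96.5%) the whole interval lay within a 2-fold difference in either direction on the log2(RPKM + 1) scale, which understates the change of low genes. Among the 6271 features whose higher line averaged 10 RPKM or more it was 6094 (97.2%). A difference of 2-fold or more was seen in 27 features, 3 higher in line A and 24 higher in line B. Of these, 3 and 11 showed no overlap between the lines. Several of the rest followed the libraries that stood apart: ADM and ANKRD37, both hypoxia-induced, were at 6.13 and 2.37 RPKM in line A at P13 and at 67.7 and 39.7 RPKM at P23. Their differences between the lines, -1.18 for ADM and -1.17 for ANKRD37, did not pass the test.

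**Figure D1:**
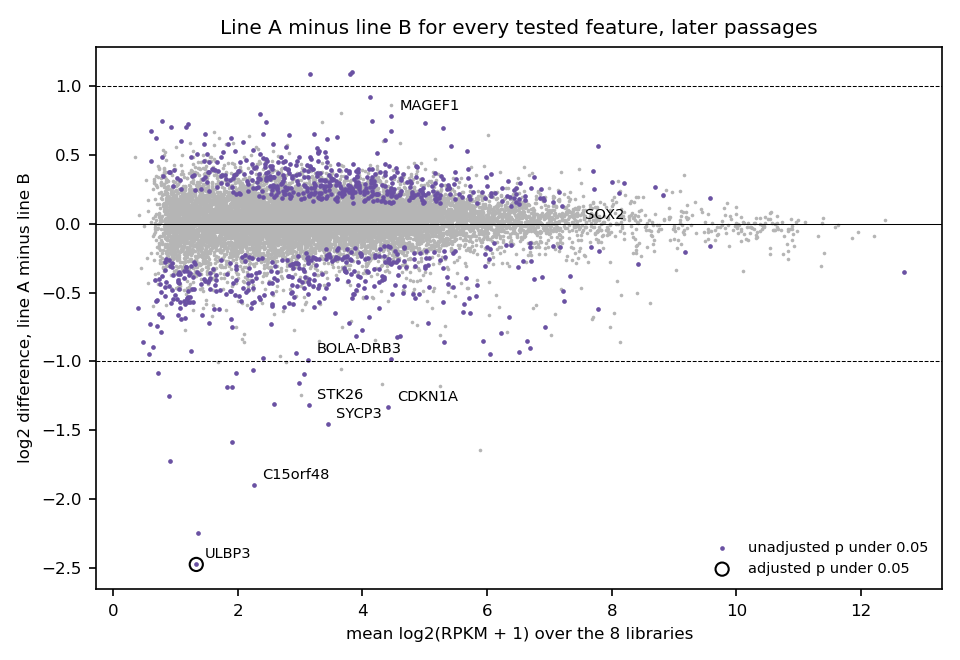
Log2 difference, line A minus line B, against the mean log2(RPKM + 1) over the 8 libraries for each of the 12785 tested features. Purple points have an unadjusted p under 0.05, the ring marks ULBP3, the 1 feature called after adjustment, and dashed lines mark a 2-fold difference; 24 features lie below the lower line and 3 above the upper.

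ULBP3 was below 0.2 RPKM in every library of line A and above 3 RPKM in every library of line B. ULBP3 encodes an MHC class I-like surface protein of stressed cells that marks them for natural killer cells. In line A it measured 0.069 RPKM at P13, 0 at P23, 0.145 at P35 and 0.074 at P45. In line B it measured 8.28 RPKM at P12, 6.19 at P24, 3.45 at P35 and 3.26 at P46. No value of line A came near the lowest of line B. Line A averaged 0.072 ± 0.059 RPKM and line B 5.29 ± 2.4 RPKM (SD, n = 4 each). The difference was -2.48 ± 0.24 on the log2 scale (SE, 95% interval -3.01 to -1.94), with a limma adjusted p of 0.0255. The call, though not the direction, depended on which libraries entered: the limma adjusted p was 0.115 without line A at P13, 0.0649 without P23, 0.166 without P35 and 0.141 without P45, and 0.19 without line B at P24. It was 0.586 without line A at P13 and P35 and 0.12 without line B at P35 as well. Over all the alternatives it ranged from 0.00428 to 0.586, and the difference without these libraries was -2.52 and -2.67. ULBP genes form a family of related copies in cattle, and reads shared between copies may have been split, so the identity of the transcript is uncertain.

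Other genes of immune recognition also stood higher in line B, without passing the test. Apart from SOX2 and the most abundant members of each list, the genes named in these results were chosen after their values were seen. The list of MHC and antigen presentation genes had 16 tested members, with a median difference of -0.42 against 0.04 over all features. No member was called after adjustment. Before adjustment limma gave a p under 0.05 for 6 members higher in line B (2.96% of all features) and none higher in line A (3.61%). In 3 of the 16 the lines did not overlap, all higher in line B (1.76% of all features). The unadjusted counts were 3 higher in line B (2.87%) without line A at P13 and P35, and 4 (3.84%) without line B at P35 as well, again with none higher in line A. The mean log2(RPKM + 1) over the 16 genes was 4.25, 4.28, 4.12 and 4.22 in line A at P13, P23, P35 and P45. It was 4.66, 4.89, 4.54 and 4.34 in line B at P12, P24, P35 and P46, above all of line A, with the smallest gap at the latest passages.

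JSP.1 is a class I heavy chain, which presents peptides on the cell surface. It measured 44.7, 38.0, 63.7 and 43.0 RPKM in line A at P13, P23, P35 and P45, and 101, 146, 79.7 and 57.4 RPKM in line B at P12, P24, P35 and P46. Line B was higher except that its P46 library lay below line A at P35. The difference was -0.95 ± 0.26 (SE), with a limma adjusted p of 0.701. BOLA-A, another class I heavy chain and not on the list, differed by less and overlapped more, at 11.6 to 16.0 RPKM in line A against 12.2 to 25.1 in line B (difference -0.36, limma adjusted p = 0.701). The partner chain B2M was at 457, 331, 248 and 280 RPKM in line A, against 487, 759, 445 and 315 RPKM in line B, with overlap between the lines. ERAP1, which trims peptides before they are loaded, was nearly constant in line A at 4.96, 5.09, 4.98 and 5.05 RPKM. In line B it was 10.2 RPKM at P12, 9.85 at P24, 6.94 at P35 and 5.91 at P46, above line A throughout. The difference for ERAP1 was -0.59 ± 0.15 (SE; limma adjusted p = 0.701). TAP2, a subunit of the peptide transporter, was 2.61 to 5.25 RPKM in line A against 4.92 to 7.56 in line B.

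Class II genes present peptides to helper T cells. BOLA-DRB3, a class II beta chain, measured 4.06, 7.05, 4.00 and 6.43 RPKM in line A, against 14.2, 11.8, 10.8 and 9.14 RPKM in line B. All 4 line B values lay above all 4 of line A, and the difference was -0.99 ± 0.19 (SE; limma adjusted p = 0.405). The neighbouring alpha chain, BoLA DR-ALPHA, which was not on the list, was 0.339 to 0.632 RPKM in line A against 0.723 to 1.32 in line B, also without overlap. CIITA, the coactivator that switches class II genes on, was 0.973 to 2.10 RPKM in line A against 2.17 to 2.69 in line B. CD74, the invariant chain, overlapped, at 1.47 to 5.64 RPKM in line A against 4.62 to 8.25 in line B. LA-DQB, a class II beta chain of the DQ type and also not on the list, did not follow: it measured 3.89, 20.6, 6.67 and 23.7 RPKM in line A, against 17.8, 11.9, 10.3 and 17.7 RPKM in line B, and its difference of -0.34 turned to 0.62 without line A at P13 and P35. MHC genes vary strongly between animals and have close copies, so reads may have been lost or moved between copies to a different extent in each line, and the values of these genes are uncertain.

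The complement protease gene C2, which lies within the MHC region, was at 10.8, 10.0, 9.92 and 10.0 RPKM in line A, against 22.4, 15.4, 27.6 and 12.8 RPKM in line B, without overlap. LAPTM5, a lysosomal protein of blood cells, was 0.743 to 1.38 RPKM in line A against 1.42 to 3.13 in line B. It was 1 of 5 tested members of the list of blood and immune cell markers, of which no other had an unadjusted p under 0.05 and whose defining member PTPRC stayed at 0.21 RPKM or less. The mean log2(RPKM + 1) of that list was 1.29 to 2.10 in line A against 2.03 to 2.77 in line B, and its part in the MHC values was not tested. Genes of the interferon response did not differ in this way: of 12 tested, none had an unadjusted p under 0.05, the median difference was 0.00, and the whole 95% interval lay within 2-fold for all 12.

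**Figure D2:**
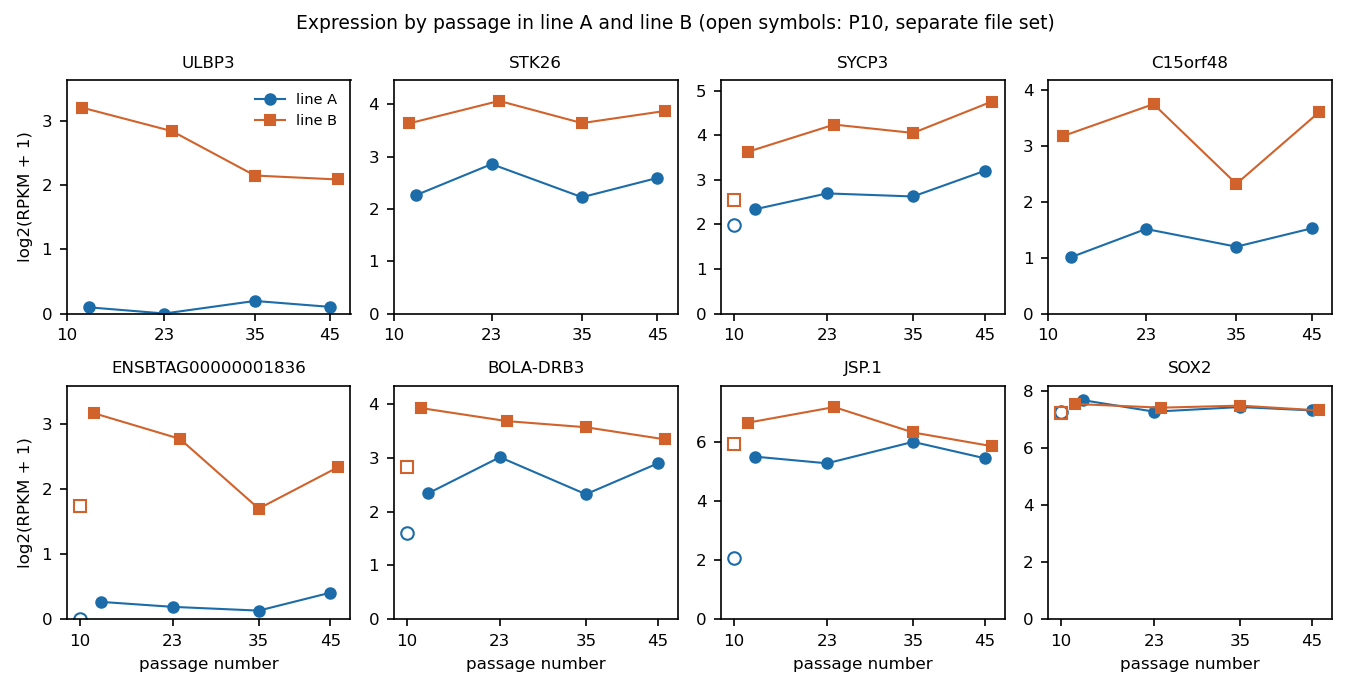
Log2(RPKM + 1) of 8 features against passage number, with circles for line A and squares for line B, 1 library per point; open symbols are the P10 libraries, from a separate set of files, where the name exists there. ULBP3, STK26, SYCP3, C15orf48, ENSBTAG00000001836 and BOLA-DRB3 show no overlap between the lines at the later passages, JSP.1 overlaps at 1 point, and the lines coincide for SOX2.

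Beyond immune genes, the features with the smallest p were mostly higher in line B. STK26, a serine/threonine kinase of the germinal centre kinase family, measured 3.81, 6.25, 3.68 and 5.04 RPKM in line A, against 11.4, 15.8, 11.5 and 13.7 RPKM in line B. Every line B library held more than every line A library, and the mean was 2.79-fold higher in line B. The difference for STK26 was -1.32 ± 0.16 (SE), just short of the threshold (limma adjusted p = 0.062). C15orf48, a small mitochondrial protein related to a subunit of the respiratory chain, was at 1.01, 1.85, 1.29 and 1.87 RPKM in line A. It reached 8.01, 12.4, 3.98 and 11.1 RPKM in line B, with the lowest value at P35. Its difference was -1.90 ± 0.29 (SE; limma adjusted p = 0.135). With passages matched in windows, both passed the test (limma adjusted p = 0.00463 for STK26 and 0.0346 for C15orf48). Neither passed without line A at P13 and P35, a fit with fewer libraries (limma adjusted p = 0.586 and 0.84). The differences in that fit were -1.08 for STK26 and -1.69 for C15orf48. Of the 20 fits run, STK26 was called in 3 and C15orf48 in 2. CTNNA3, a catenin of cell junctions, was low in both lines, at 0.066 to 0.245 RPKM in line A against 0.81 to 1.42 in line B.

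SYCP3, a component of the synaptonemal complex that holds chromosomes together in meiosis, was higher in line B at each passage window. It measured 4.07, 5.48, 5.18 and 8.21 RPKM in line A at P13, P23, P35 and P45, and 11.4, 17.9, 15.6 and 26.1 RPKM in line B at P12, P24, P35 and P46. In both lines the latest passage held the highest value and the earliest the lowest. The difference was -1.45 ± 0.25 (SE; limma adjusted p = 0.225). It passed the test when passage number entered the model (limma adjusted p = 0.0234) or passages were matched in windows (0.00463). Those were the 2 of 20 fits that called it. Without line A at P13 and P35 the difference was -1.22 and the limma adjusted p was 0.84. The other tested gene of germline and meiosis, STAG3, overlapped, with a difference of 0.02. Of 19 listed germline genes, 16 had a row and 2 reached the level required for a test.

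Features without a gene name joined the group that was near 0 in line A. ENSBTAG00000001836 was at 0.202, 0.139, 0.095 and 0.326 RPKM in line A, against 8.02, 5.85, 2.25 and 4.05 RPKM in line B, a difference of -2.25 ± 0.27 (SE; limma adjusted p = 0.062). It passed the test with passages matched in windows (limma adjusted p = 0.0346). It did not pass without line A at P13 and P35 (limma adjusted p = 0.795), where the difference was -2.20. Of the 20 fits, 4 called it. ENSBTAG00000046595 was 0.094 to 0.276 RPKM in line A against 1.36 to 2.65 in line B, and ENSBTAG00000024490 was 0.107 to 0.153 and 0.767 to 1.98 RPKM. These 3 features stand within 4 rows of each other in the files, whose rows follow the genome: of 14553 consecutive rows with names found in the RefSeq table, 14346 pairs (98.6%) lay on the same chromosome there. Over the whole table there were 26 such runs of neighbouring features without overlap in the same direction, none longer than 3. In 2 runs every member differed at least 2-fold, namely this one and a pair higher in line A. A further pair higher in line B held ENSBTAG00000010166, which was not near 0 in line A. It measured 2.78, 6.01, 3.68 and 5.44 RPKM in line A, against 13.6, 12.3, 8.56 and 9.73 RPKM in line B. Its row directly follows that of the class I gene BOLA-A, so it cannot be counted apart from the MHC genes. Neighbouring features can be pieces of 1 transcript, so they are not independent.

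Features higher in line A were not fewer by unadjusted p, but they differed by less. MAGEF1, a regulator of ubiquitin ligases, was nearly flat in line A at 27.4, 27.7, 28.2 and 28.3 RPKM. It was 10.8, 17.2, 19.03 and 17.5 RPKM in line B, below line A throughout, with a difference of 0.78 ± 0.15 (SE; limma adjusted p = 0.405). GSTA4, which detoxifies products of lipid peroxidation, was 41.0, 38.2, 38.1 and 38.3 RPKM in line A, against 31.6, 30.3, 32.9 and 31.0 RPKM in line B. That gap of 0.30 on the log2 scale was small, but neither line varied by more than a few RPKM. C8orf33 was 4.93 to 6.04 RPKM in line A against 2.56 to 4.01 in line B. ENSBTAG00000047064 and ENSBTAG00000047744 are adjacent in the files, had nearly the same values and may share reads. The former was 16.7 to 24.4 RPKM in line A against 5.21 to 13.8 in line B. CLDN9, a tight junction protein, was 15.4, 7.35, 23.2 and 7.77 RPKM in line A against 4.29 to 6.18 in line B, so its difference of 1.09 rested largely on line A at P13 and P35.

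Stress and growth-arrest genes stood higher in line B before adjustment, but partly through the libraries that stood apart. Among 14 tested p53 targets the median difference was -0.20, and 6 had an unadjusted p under 0.05, all higher in line B (2.96% of all features). The lines did not overlap for 2 of the 14, both higher in line B (1.76% of all features), and none was called. Without line A at P13 and P35 the unadjusted count was 2, both higher in line B (2.87%). It was also 2 without line B at P35 as well (3.84%). CDKN1A, an inhibitor of cyclin-dependent kinases and the best-known p53 target, measured 8.83, 25.4, 6.17 and 16.8 RPKM in line A, against 38.3, 43.0, 27.1 and 26.3 RPKM in line B. Its lowest values were those of line A at P13 and P35. The difference of -1.33 ± 0.37 (SE; limma adjusted p = 0.701) moved to -0.65 without those libraries. AEN, a nuclease induced by p53, was 15.2 to 18.0 RPKM in line A against 18.9 to 23.1 in line B, without overlap.

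Targets of ATF4, the transcription factor of amino acid shortage, followed the same libraries more closely. Of 17 tested, 4 had an unadjusted p under 0.05, all higher in line B (2.96% of all features), with a median difference of -0.36. None of the 17 separated the lines. Without line A at P13 and P35 the unadjusted count was 0 (2.87% of all features), with a median of -0.16. Without line B at P35 as well it was 4, all higher in line B (3.84%), with a median of -0.24. TRIB3, which feeds back on ATF4, was 0.493, 4.74, 0.572 and 2.97 RPKM in line A, against 5.38, 6.87, 2.67 and 4.86 RPKM in line B. DDIT3, a death-promoting factor of the same response, was 18.7, 50.1, 16.6 and 40.9 RPKM in line A, against 42.7, 66.7, 45.6 and 57.4 RPKM in line B. Line A at P23 reached into the range of line B in both genes and at P45 in TRIB3 alone, while P13 and P35 lay below it in both. The difference of TRIB3 moved from -1.08 to -0.26 without line A at P13 and P35, and that of DDIT3 from -0.86 to -0.20. Without line B at P35 as well they were -0.48 for TRIB3 and -0.27 for DDIT3.

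FGF and ERK targets report on the pathway that the medium drives through FGF2. The median over 15 tested members was -0.11, and 3 had an unadjusted p under 0.05, all higher in line B (2.96% of all features). The count was 1 without line A at P13 and P35 (2.87% of all features), and 3 without line B at P35 as well (3.84%), all higher in line B. SPRY4, a feedback inhibitor of the pathway, measured 27.9, 57.0, 38.7 and 52.1 RPKM in line A, against 60.3, 64.1, 59.7 and 63.6 RPKM in line B, without overlap. DUSP6, the ERK phosphatase, was 78.5, 120, 102 and 111 RPKM in line A, against 110, 133, 144 and 148 RPKM in line B, with overlap. IER3, an early response gene, was 24.8 to 31.3 RPKM in line A against 31.7 to 50.4 in line B. Of these 3, IER3 alone kept a difference near its full size without line A at P13 and P35 (-0.38 against -0.46), while SPRY4 moved from -0.54 to -0.18 and DUSP6 from -0.39 to -0.21.

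Immediate early genes, switched on within minutes of a stimulus, had 4 of 16 tested members with an unadjusted p under 0.05, all higher in line B (2.96% of all features), and a median of -0.20. The count was 1 without line A at P13 and P35 (2.87% of all features), and 1 without line B at P35 as well (3.84%), each higher in line B. The 4 were JUN and JUNB, subunits of the AP-1 factor, ATF3 and IER3. JUN measured 33.6, 55.8, 26.2 and 42.2 RPKM in line A, against 75.8, 50.8, 58.1 and 57.6 RPKM in line B, with overlap. JUNB was 31.6 to 36.4 RPKM in line A against 36.9 to 50.6 in line B, without overlap. CYR61, a matrix protein on the list of NODAL and TGF-beta targets, was 132 to 229 RPKM in line A against 248 to 295 in line B, without overlap. FOS and EGR1 went their own way, with FOS at 151 RPKM in line A at P13 and 159 in line B at P12, and no higher than 81.4 RPKM in the other 6 libraries. EGR1 was likewise highest in the earliest library of each line, at 223 and 182 RPKM.

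Over all 8 libraries, core pluripotency genes gave no sign of a difference. None of 8 tested members had an unadjusted p under 0.05, the median difference was 0.05, and all 8 intervals lay within 2-fold. SOX2 measured 205, 154, 173 and 159 RPKM in line A, against 186, 170, 179 and 159 RPKM in line B. The means were 173 ± 22.7 and 173 ± 11.7 RPKM (SD, n = 4 each), and the difference was -0.01 (95% interval -0.23 to 0.20). LIN28B, an RNA-binding protein that blocks let-7 maturation, was 34.8 to 54.5 RPKM in line A against 32.6 to 44.7 in line B. SALL4 was 28.7 to 40.4 and 27.2 to 38.4 RPKM. DNMT3B, a methyltransferase of early embryonic cells, was 107 to 150 RPKM in line A against 118 to 141 in line B except at P35, where it was 72.2 RPKM. PRDM14 was also lowest in that library, at 14.3 RPKM against 18.3 to 36.1 in the other 7. The fit without line A at P13 and P35 and line B at P35 was less even, with a median of -0.14. There 2 of the 8 genes had an unadjusted p under 0.05, both higher in line B (3.84% of all features).

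Markers of the primed state were shared as well. Of 12 tested, only DUSP6 had an unadjusted p under 0.05, and the median was 0.07. Without line A at P13 and P35, 2 favoured line B (2.87% of all features) and 1 favoured line A (2.2%). Without line B at P35 as well, 3 favoured line B (3.84%) and 1 favoured line A (2.74%). OTX2 differed by 0.05 (95% interval -0.17 to 0.27) and ZIC2 by -0.13 (-0.40 to 0.14), both factors of the late epiblast. SFRP2, a secreted WNT antagonist, was 41.2 to 81.7 RPKM in line A against 59.5 to 82.2 in line B except at P35, where it reached 171 RPKM. Among 5 tested markers of the naive state, SUSD2 alone had an unadjusted p under 0.05, with 8.83, 17.6, 10.2 and 15.8 RPKM in line A, against 24.9, 23.0, 14.8 and 22.0 RPKM in line B. Its difference moved from -0.68 to -0.30 without line A at P13 and P35. Then 2 naive markers had an unadjusted p under 0.05, both higher in line A (2.2% of all features). Without line B at P35 as well it was 1 in each direction (2.74% for line A and 3.84% for line B). SUSD2 was the 1 higher in line B, with a difference of -0.46 (limma unadjusted p = 0.000772). KLF4 had a difference of 0.00 on the log2 scale, which became 0.34 without line A at P13 and P35.

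Over all 8 libraries, neural ectoderm and trophectoderm genes, of lineages the cells can enter, separated libraries rather than lines. SIX3, a forebrain factor, was 83.6, 6.75, 33.6 and 11.9 RPKM in line A, against 32.8, 24.7, 63.3 and 12.2 RPKM in line B. LHX2, another forebrain factor, followed it, with 24.7 RPKM in line A at P13 and 2.19 at P23. None of 12 tested neural ectoderm genes had an unadjusted p under 0.05. Without line A at P13 and P35, 3 did, all higher in line B (2.87% of all features). Without line B at P35 as well, 4 favoured line B (3.84%) and 1 favoured line A (2.74%). Because of the spread, only 7 of the 12 intervals lay within 2-fold, so a difference in SIX3 (95% interval -1.97 to 1.30) is poorly bounded. The epithelial keratin KRT19 was 26.6, 82.8, 28.1 and 62.4 RPKM in line A against 73.6 to 85.0 in line B. KRT19 and TEAD4 were the 2 of 6 tested trophectoderm genes with an unadjusted p under 0.05, both higher in line B (2.96% of all features). Neither kept it without line A at P13 and P35. Of 7 hypoblast genes none had an unadjusted p under 0.05. All 6 tested primitive streak and mesoderm genes were higher in line B, with a median of -0.16. MSX2 alone had an unadjusted p under 0.05 (2.96% of all features). Without line A at P13 and P35 the median was -0.22 and none had one (2.87%). Without line B at P35 as well the median was -0.14, and 1 had one, higher in line B (3.84%).

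Fibroblast and mesenchyme genes, among which RNA of feeder cells would fall where mouse reads match the bovine genome, had a median difference of 0.02 over 24 tested genes, 12 of them higher in each line. LOX alone had an unadjusted p under 0.05. The 95% interval lay within 2-fold for 20 of the 24, and was wider for COL3A1, COL6A3, TAGLN and POSTN. COL1A1, the main fibrillar collagen chain, was 74.4 to 89.8 RPKM in line A against 68.8 to 83.9 in line B. The mean log2(RPKM + 1) of the list was 4.46 to 4.91 in line A against 4.32 to 4.76 in line B. Y-linked genes were present in both lines, with USP9Y between 21.8 and 32.4 RPKM in all 8 libraries, and none of the 3 tested or of 12 X-linked genes had an unadjusted p under 0.05.

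Imprinted genes, expressed from 1 parental copy and known to drift in culture, held unadjusted differences in both directions. Of 23 tested, 5 had an unadjusted p under 0.05 higher in line A (3.61% of all features) and 2 higher in line B (2.96%). The median was 0.07 and none was called. NDN, MAGEL2 and SNRPN, which lie together in the Prader-Willi region, were all among the 5. NDN measured 50.4, 36.1, 70.8 and 45.2 RPKM in line A, against 24.6, 24.4, 41.0 and 32.8 RPKM in line B, so that line B at P35 lay above line A at P23. SNRPN was 191, 238, 256 and 263 RPKM in line A, against 152, 173, 190 and 211 RPKM in line B, and MAGEL2 was 14.97 to 31.4 and 12.7 to 19.2 RPKM. Without line A at P13 and P35 the difference of NDN moved from 0.69 to 0.42, of MAGEL2 from 0.52 to 0.15 and of SNRPN from 0.38 to 0.47. At P10 MAGEL2 was lower in line A (23.6 against 29.6 RPKM), while NDN and SNRPN were higher there. At the later passages NDN, MAGEL2 and SNRPN each overlapped between the lines. TSPYL5 did not overlap, at 5.93 to 10.9 RPKM in line A against 3.72 to 5.68 in line B. In the other direction IGF2R, the receptor that clears IGF2, was tight in both lines, with 9.47 to 10.9 RPKM in line A against 11.8 to 12.7 in line B and a difference of -0.25 ± 0.07 (SE; limma adjusted p = 0.701). MEST and DLK1 spread by far more within a line than between lines, from 33.9 to 395 RPKM for MEST and 37.0 to 386 for DLK1 in line A, both highest at P13. Without line A at P13 and P35 the unadjusted counts were 1 higher in line A (2.2% of all features) and 4 higher in line B (2.87%). Without line B at P35 as well they were 5 (2.74%) and 5 (3.84%).

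Enzymes of DNA methylation were close. DNMT3A, a de novo methyltransferase, was 43.8 to 56.0 RPKM in line A against 36.0 to 41.9 in line B, the 1 of 8 without overlap, with a difference of 0.29 ± 0.09 (SE; limma adjusted p = 0.701). Of 14 polycomb genes none had an unadjusted p under 0.05 and all intervals lay within 2-fold. Of 6 tested WNT targets, NKD2 alone had one, at 12.9 to 15.05 RPKM in line A against 9.99 to 12.5 in line B. AXIN2, the usual readout of WNT activity, was 1.40 to 1.85 RPKM in line A against 1.54 to 2.57 in line B.

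In metabolism no tested gene of the hypoxia, glycolysis or mitochondrial lists separated the lines without overlap. Hypoxia-induced genes had a median difference of -0.13 over 24 tested. Of these, VEGFA and LOX had an unadjusted p under 0.05, both higher in line B (2.96% of all features). Without line A at P13 and P35 the median was 0.30, and 3 members had one, all higher in line A (2.2%). Glycolysis genes behaved alike, with a median of -0.01 over 17, and 0.32 without those libraries. PGK1, a glycolytic kinase, was 223, 640, 346 and 630 RPKM in line A, against 510, 353, 312 and 648 RPKM in line B. PGK1 thus varied more within each line than between the lines, and the sign of the list medians turned on which libraries were included. Mitochondrial genes were tighter: all 15 intervals of nuclear respiratory chain genes and all 11 of mitochondrially encoded genes lay within 2-fold. Of the mitochondrially encoded genes, 10 were higher in line B, with a median of -0.12, and COX1 alone had an unadjusted p under 0.05. Without line A at P13 and P35, 3 had one, all higher in line B (2.87% of all features). Without line B at P35 as well it was 2, again higher in line B (3.84%). ADH6, an alcohol dehydrogenase, turned on 1 library, with 159, 161, 151 and 188 RPKM in line A, against 458, 496, 57.6 and 361 RPKM in line B. Its difference was -0.67 (limma adjusted p = 0.769), and -1.40 without line B at P35 (limma adjusted p = 0.0114).

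**Figure D3:**
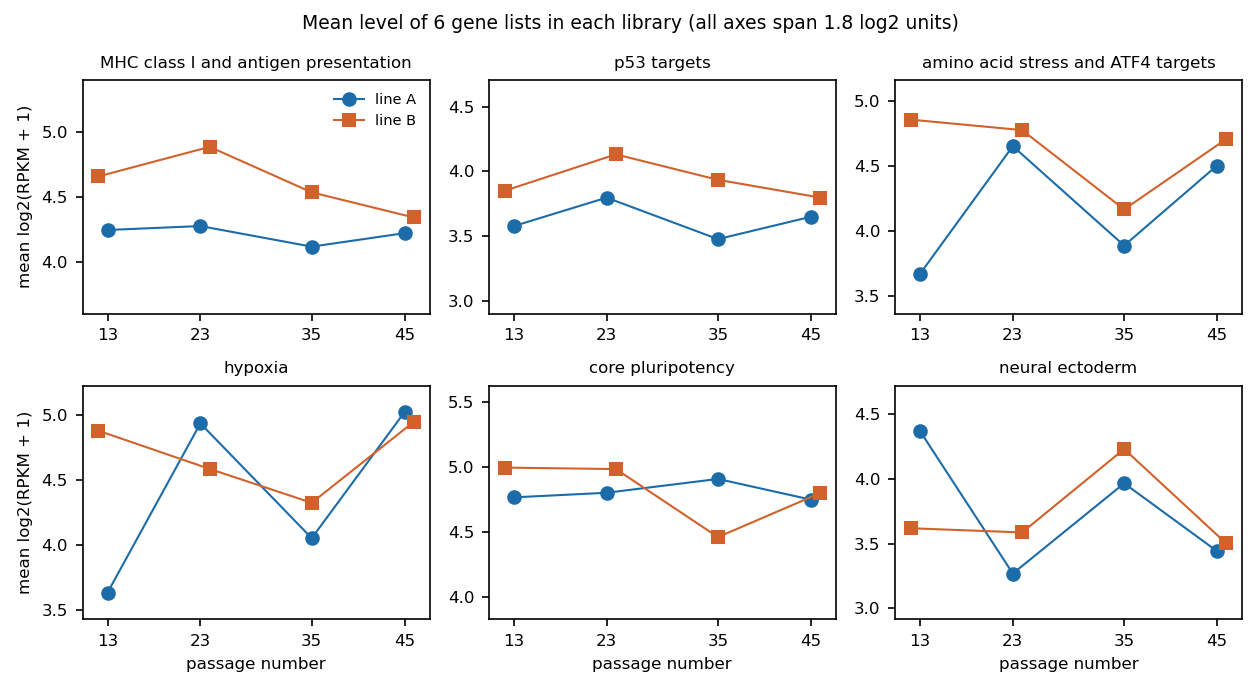
Mean log2(RPKM + 1) over the tested members of 6 gene lists in each library, against passage number, with circles for line A and squares for line B. The lines do not overlap for MHC and antigen presentation (4.12 to 4.28 in line A, 4.34 to 4.89 in line B), whereas for hypoxia and neural ectoderm line A at P13 and P35 and line B at P35 lie apart from the other libraries.

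Pairs of libraries were as far apart within line A as between the lines. Between the lines, the 16 pairs differed by at least 2-fold in 33 to 578 features, with a median of 274. The 6 pairs within line A differed in 17 to 559 (median 296.5), and the 6 within line B in 51 to 283 (median 148.5). Line A at P23 and P45 were the closest pair, with 17 features, although 22 passages lay between them. Line B at P46 was nearest to line A at P23, with 33 features, and not to a library of its own line; the other 7 libraries had their nearest neighbour in their own line. Spread within line A was wider than within line B: the median SD was 0.17 against 0.13 on the log2 scale, and it was larger in line A for 63.3% of features.

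**Figure D4:**
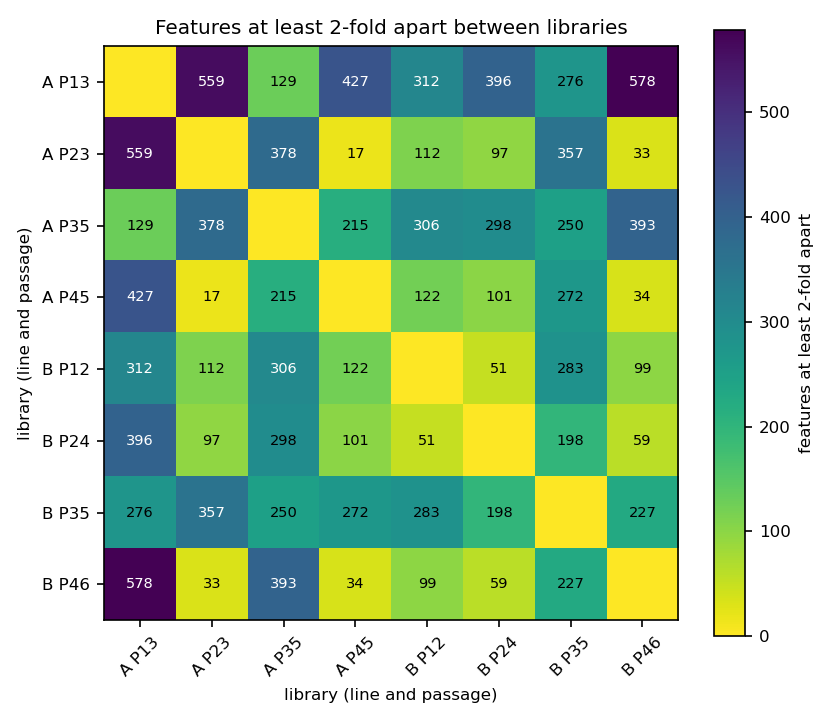
Number of features at least 2-fold apart on the log2(RPKM + 1) scale for each pair of the 8 later-passage libraries, named by line and passage. Line A at P13 and P35 and line B at P35 are far from most libraries (up to 578), while line A at P23 and P45 and line B at P46 differ from each other in 17 to 34 features.

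The gap between the lines did not change detectably with passage. In a limma model with a line by passage term, no feature had a difference of slopes at an adjusted p under 0.05 (0.0%), and 83 had an unadjusted p under 0.05 (0.649%). ULBP3 and ERAP1 were among the latter, with unadjusted p of 0.0074 and 0.0242 in limma. In both, line B held its highest level at P12 and its lowest at P46, while line A stayed flat.

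The P10 libraries, 1 of each line, did not enter the fit of the later passages. They come from another set of files, and 10621 tested features had a value there. Of these, 64.1% differed in the same direction at P10 as at the later passages. Among features without overlap it was 197 of 270 higher in line A (73.0%) and 143 of 180 higher in line B (79.4%). A difference of at least 2-fold in the same direction at P10 was found for 3.60% of all features. It was found for 3.33% of those higher in line A and 11.7% of those higher in line B. The P10 pair itself was uneven: 108 of the 10621 features were at least 2-fold higher in line A and 463 in line B. The 3.60% pools both directions, so it is not the share for either direction alone. ENSBTAG00000001836 was at 0 RPKM in line A against 2.35 in line B at P10, and ENSBTAG00000034871, which was 1.04 to 1.55 RPKM in line A against 3.38 to 6.19 in line B later, was at 0.126 and 5.80 RPKM. SYCP3 was at 2.99 and 4.88 RPKM and BOLA-DRB3 at 2.02 and 6.06 RPKM, again lower in line A. CYR61 was the reverse of its later pattern, at 53.2 RPKM in line A against 16.3 in line B, and CDKN1A was level at 9.17 and 7.60 RPKM. ULBP3, STK26 and C15orf48 were not compared at P10.

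MHC and antigen presentation genes stood lower in line A at P10 as well. All 15 members with a P10 value were lower in line A, with a median of -0.53, while 5435 of all 10621 features were lower there. At the later passages 13 of the 16 tested members were lower in line A and 3 (PSMB10, PDIA3 and CANX) slightly higher, by 0.11 or less. JSP.1 was at 3.20 RPKM in line A against 60.8 in line B, B2M at 78.9 and 188 RPKM, and ERAP1 at 2.99 and 10.9 RPKM. Other lists moved with line at P10 too. All 3 blood and immune cell markers with a P10 value were at least 2-fold lower in line A, with a median of -2.54. Interferon response genes were lower in line A in 9 of 11, with a median of -0.16. Of fibroblast and mesenchyme genes, 23 of 24 were lower in line A, 12 of them at least 2-fold. The part of these lists in the P10 values of the MHC genes was not tested. At the later passages the fibroblast and mesenchyme list had a median difference of 0.02, and the blood and immune cell list -0.51. ATF4 targets pointed the other way at P10, with 14 of 15 higher in line A and a median of 1.46, against -0.36 later. With 1 library per line, no test was possible at P10.

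**Figure D5:**
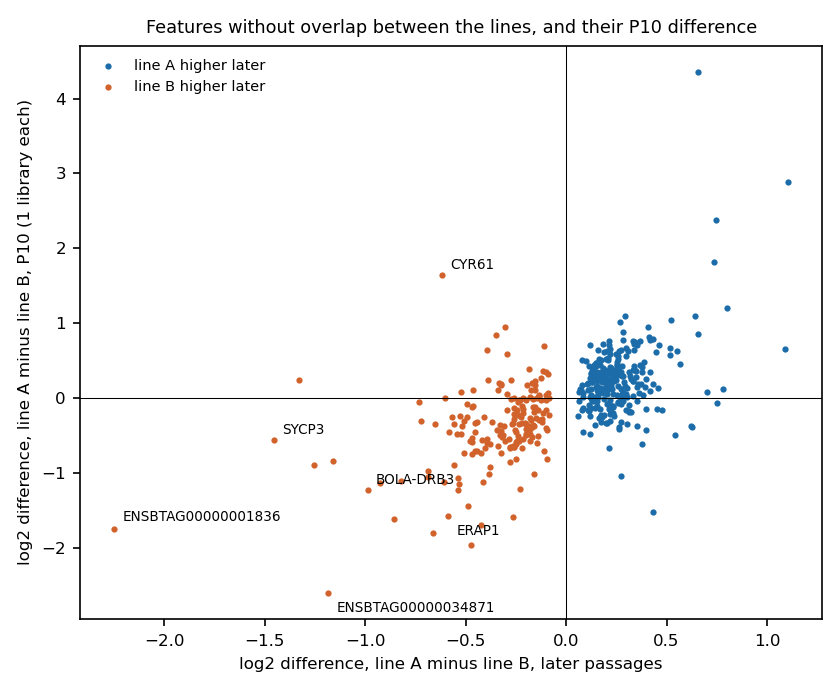
Log2 difference, line A minus line B, at P10 (1 library per line, vertical axis) against that at the later passages (horizontal axis) for the 450 features whose later values do not overlap between the lines and that have a P10 value. Of the features higher in line B later, 143 of 180 lie below 0 at P10, and of those higher in line A, 197 of 270 lie above.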

How the data were processed

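Total RNA was made into libraries with the TruSeq RNA kit, per the labels' protocols. The values are RPKM as the authors deposited them; UMD 3.1 and edgeR are named in the submitters' processing notes, while for aligner, counting and annotation the sources used here give nothing. Of 24616 features, 15607 names matched RefSeq's table of another assembly, which was used for names and neighbours only, so no coordinates are given. In 5 files, 26 names written as dates were restored by row. At P10, 26 rows with unreadable names, 25 with dates and 7 blank were left out. Features that reached 1 RPKM in 2 or more libraries were tested with limma 3.58.1 (R 4.3.3; eBayes with trend, two-sided) on log2(RPKM + 1), as line A minus line B over the 8 libraries, with Benjamini-Hochberg adjustment over all 12785 features. A second model added passage and its interaction with line, per 10 passages. No count test was run, since counts were not analysed here. The scripts were tested on simulated data.

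Genes were to be named by rule: called features by size, agreement at P10 or near-absence from 1 line, up to 4 called members of a list or, for a list without a call, its 2 most abundant members, and POU5F1, SOX2 and NANOG. With 1 call, of low level, the rule gave only abundant list members and SOX2; the features of smallest p and the list members with an unadjusted p under 0.05 or without overlap were added after their values were seen. The comparison and the 38 gene lists (683 genes, 440 tested) were chosen with earlier results of these data known. Alternatives covered scaling, pseudocount (0.1), filter, passage, libraries left out, the hypoxia list mean as a covariate and 10 libraries with a P10 term. A planned description of promoter motifs was not made.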

Additional observations from a re-analysis of the deposited data

Results flagged for a closer look

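In 348 groups of 4 values (each named gene and each list in each line), 17 (4.89%) had a highest or lowest library whose gap to the nearest other took up more of the range than Dixon's 95% critical value for 4 samples allows; chance flags about 1 in 20. Line B at P35 held 8 of the 17 and line A at P13 held 6. In line B at P35, ATF3 was low at 25.1 RPKM (31.1 to 31.9 in the others), ATP5A1 was low at 547 (641 to 648), IGF2 was high at 10.1 (5.27 to 5.42) and SPARC was high at 433 (334 to 343). List means also stood apart there: neural ectoderm at 4.23, insulin and IGF pathway at 4.75 and protocadherins and neural adhesion at 3.38 were high, and cholesterol synthesis and uptake at 5.89 was low. In line A at P13, C8orf33 (4.93 RPKM), JARID2 (80.9) and USP9Y (25.3) were low, and GSTA4 (41.0), C2 (10.8) and FOS (151) were high. SPARC was low in line A at P35 at 308 RPKM (333 to 336 in the others). In line B, COX3 was high at P24, at 4553 RPKM (3850 to 3916), and KLF4 at P46, at 14.7 RPKM (11.4 to 11.8).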

How the results depend on the processing

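No feature was higher in line A in any of the 20 fits, and no slope difference was called in any fit of that model. The number called higher in line B, 1 in the fit reported, was 0 with quantile normalization and 0 without the filter (19001 features). It was 6 with a pseudocount of 0.1, 2 with passage as a covariate, 5 with passages matched in 4 windows and 2 with the hypoxia list as a covariate. It was 0 without line A at P13 and P35, 0 without line B at P35 as well, and 2 in the 10 stem cell libraries. It was 1 with median-of-ratios scaling and with the filter at 4 libraries. Leaving out each library in turn gave 0 to 5: 0 without any 1 library of line A or without line B at P24, 1 without P12 or P46, and 5 without P35 of line B, where C15orf48, ENSBTAG00000001836, ENSBTAG00000034189 and ADH6 joined ULBP3. Unadjusted counts then ran from 395 (without line A at P35) to 1802 (without line A at P23), against 840. With matched windows C15orf48, ENSBTAG00000001836, STK26 and SYCP3 were called beside ULBP3. STK26 was also called with the hypoxia covariate and the pseudocount of 0.1, SYCP3 with passage as a covariate, and ENSBTAG00000001836 with the pseudocount of 0.1 and in the 10 libraries. Differences of named features were counted as turned where the sign changed and either value had an unadjusted p under 0.05: 7 of 2475 values over 132 features. DNMT3B was -0.22 without line A at P13 and P35 and line B at P35. LA-DQB was 0.62 and KLF4 0.34 without line A at P13 and P35, and 0.48 and 0.31 without line B at P35 as well. PGK1 was 0.26 and BNIP3 0.41 with the hypoxia covariate. The cause was not tested. The labels carry no replicate numbers, so the paired fit was the one with passages matched in windows. Depth limits features near 1 RPKM, and read totals are unknown.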
